A study of Bos taurus with 18 samples.

Results

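Fibroblasts in culture divide for a limited time, stop in replicative senescence and can, rarely, give rise to cells that keep dividing. The genes described here are those whose level fell at least 2-fold from primary to senescent libraries and at least 2-fold again from senescent to immortalized libraries of the Simmental-like line. They were chosen on deposited gene counts expressed as CPM (counts per 1e+06 of a library's total count). A gene had to average at least 10 CPM over the 3 primary libraries, at most a ratio of 0.5 to that in the senescent libraries, at most a ratio of 0.5 to the senescent mean in the immortalized libraries, and hold more than 3 counts over the immortalized libraries. By this rule 74 of 24596 genes were chosen, and 8044 genes met the conditions on the primary level and the immortalized counts. Of the 74 genes, 70 carry a gene symbol and 4 only an Ensembl identifier, and the latter are counted without being named. Because the choice used the Simmental-like values, these are given as a description with no test.

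RNA sequencing covered 2 cattle lines, Holstein-like and Simmental-like, each with 3 libraries at every one of 3 labelled stages (primary, senescent, immortalized), 18 in all. The cell line label is PBF-13 (Simmental-like) or PBF-15 (Holstein-like) at the primary stage, Sn-BF-13 or Sn-BF-15 at the senescent stage and HUN-BF-13 or HUN-BF-15 at the immortalized stage. The labels name no transgene; the senescent Simmental-like culture name holds the words MultiXray-Ctrl, which the labels do not explain. The title of the series describes spontaneous immortalization in extended culture, and the animals' age and the tissue sampled are not stated there. Primary columns are headed BDF-20-3B-4 (Simmental-like) and BEF (Holstein-like), senescent columns BDF-20-MultiXray-Ctrl and BF-15-P9, and immortalized columns BF-13 and BF-15-P23, so stage and named culture cannot be told apart. All Holstein-like column names also end in the word Rerun, and no Simmental-like one does. Replicates are labelled biological, but separate cultures or animals are not named for them, so the p-values given here reflect only how far these libraries scattered, and that scatter may be technical. Simmental-like libraries held 18.2 to 23.2 M counts (M is 1e+06), and a count of 0 allows a level of up to 3 counts, or 0.129 CPM in the deepest library. The counts of senescent libraries 1 and 2 of this line were nearly as alike as sampling allows (chi-square per gene 1.34, against 3.36 and 3.80 for the other senescent pairs), and with these counted as 1 sample the rule again gave 74 genes, 73 of them the same. All 11 fibroblast markers stood at 1 CPM or more at every Simmental-like stage, with a summed level of 52811 to 65872 CPM in primary, 39596 to 39883 CPM in senescent and 52614 to 59028 CPM in immortalized libraries.

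As background, cultured fibroblasts build the extracellular matrix, can take on the contractile features of myofibroblasts through smooth muscle actin and its partners, and release prostaglandins and growth factor binding proteins. Senescent fibroblasts stay alive without dividing and change what they secrete, whereas immortalized cells have left that state. Several of the 74 genes belong to those fibroblast functions: elastic fibres, contractile filaments, prostanoid synthesis and growth factor binding. CPM values are not divided by transcript length, so levels are compared between libraries for 1 gene and not between genes. In bulk RNA, fewer cells of a kind and less RNA per cell cannot be told apart.

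The 2 steps of the fall differed in size from gene to gene. Over the 74 genes the median fold was 3.77 from primary to senescent and 4.08 from senescent to immortalized libraries, and the median total fold was 15.9, with a range from 4.26 to 2184. The second step was the larger one for 42 genes and the first for 32. This balance depends on the scaling: with TMM factors (edgeR's correction of library totals for composition) the median folds were 5.23 and 3.65, and the first step was the larger one for 48 of the 74. The highest senescent library lay below the lowest primary library for 72 genes, all but ITGA11 and SCN3A, beside 15.5% of all 13099 tested genes. The highest immortalized library lay below the lowest senescent one for 73 genes, all but SDK1, beside 46.1% of all tested genes. These counts follow from how the genes were chosen.

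**Figure D1:**
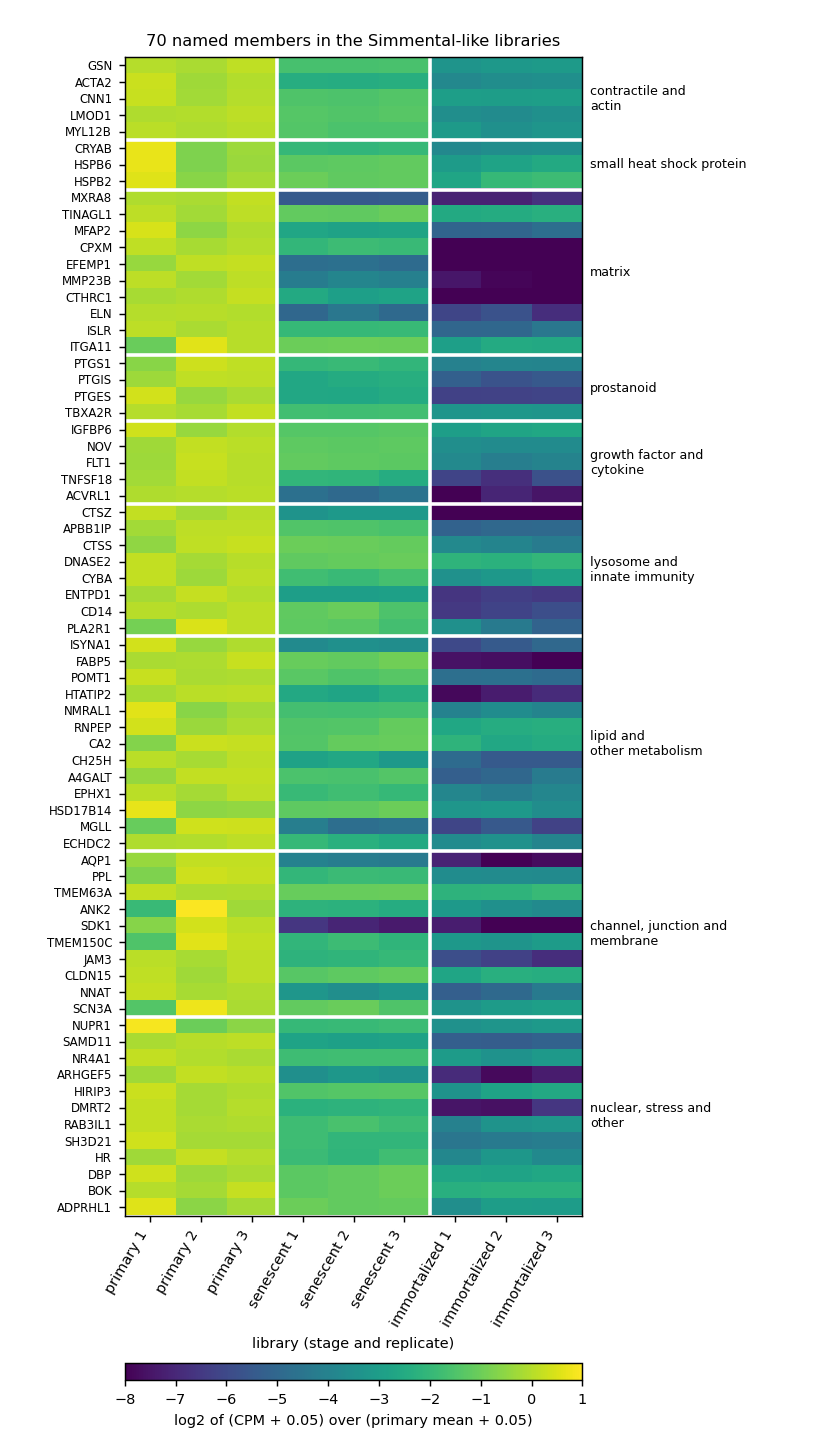
The map shows the level of each of the 70 genes with a symbol in the 9 Simmental-like libraries, as log2 of CPM plus 0.05 over the primary mean plus 0.05, with rows grouped by function and ordered by primary level. The colours step down at the lines between stages, and 27 of all 74 genes were under 1 CPM in every immortalized library.

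How many of the genes that could qualify halved at the first step depended on the scaling. By column totals 417 of 8044 (5.18%) were at most a ratio of 0.5 at the first step and 459 (5.71%) at the second. Of the 417, 76 (18.2%) halved again, against 383 (5.02%) of the 7627 that had not halved at first. With TMM scaling 1299 of 8379 genes (15.5%) halved at the first step, and the 2 shares were 6.62% and 3.57%. These shares are descriptions of the table that chose the genes.

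**Figure D2:**
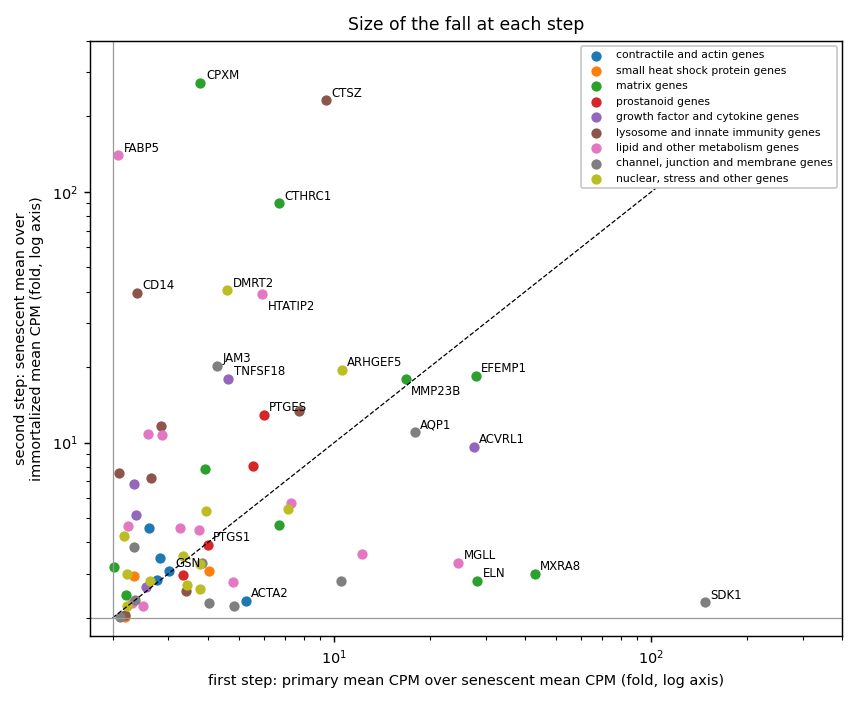
Each point is 1 gene with a symbol, with the fold from primary to senescent on the x axis and from senescent to immortalized on the y axis, both logarithmic ratios of mean CPM, coloured by function. Grey lines mark the limit of 2-fold that the rule set and the dashed line marks equal steps: SDK1 lies far to the right (147-fold, then 2.31-fold), and CPXM (3.79-fold, then 271-fold) and CTSZ (9.44-fold, then 231-fold) lie at the top.

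The contractile group held 5 genes with total folds of 7.77 to 12.3 and a median of 2.83-fold at the first and 3.08-fold at the second step. GSN encodes gelsolin, which severs and caps actin filaments, and stood at 2235, 2050.0 and 2452 CPM in primary libraries 1 to 3, 738, 736 and 755 CPM in senescent and 219, 242 and 262 CPM in immortalized ones. For ACTA2, smooth muscle actin and the usual marker of myofibroblasts, the values were 2525, 1699.7 and 2047 CPM, then 394, 389 and 409 CPM, then 150.4, 176 and 183 CPM. Most of the ACTA2 fall came at the first step (5.26-fold, then 2.34-fold). CNN1, the actin-binding calponin of smooth muscle, measured 424, 304 and 358 CPM in primary, 130.1, 127 and 138 CPM in senescent and 46.9, 45.8 and 47 CPM in immortalized libraries. LMOD1, a leiomodin that nucleates actin filaments in smooth muscle, had 46.6, 47.9 and 52.9 CPM, 19.2, 18.2 and 19.2 CPM and 4.12, 3.84 and 4.4 CPM at the 3 stages in the same order. The groups did not overlap for these 4 genes or for MYL12B, a myosin light chain that averaged 31, 11 and 3.15 CPM. This follows from how the genes were chosen, and 15.5% and 46.1% of all tested genes fell without overlap at the 2 steps. Reads of MYL12B may be shared with near-identical myosin light chain genes, so its split is uncertain.

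The other contractile genes gave fewer calls at the second step than at the first, as did all tested genes (4249 against 7591 of 13099). Of 17 listed contractile genes outside the 74 that were tested, edgeR's quasi-likelihood test called 8 lower and 2 higher in senescent than in primary libraries, beside 29.7% and 28.3% of all tested genes. With total count scaling the split was 5 and 3, beside 1840 lower and 5955 higher of all 13099 tested genes. The list's median log2 change turned from -0.27 to 0.16. Over all tested genes the same change of scaling moved the median from 0.012 to 0.47 at this step. At the second step 1 was lower and 2 were higher, beside 16.1% and 16.4% of all tested genes, and the list's median was 0.08. These counts leave out 3 listed genes that the rule had chosen for falling at both steps. The shares over all tested genes include the 74, so the choice itself can make the lower counts of a list smaller. This applies to every list below, with 3 genes left out for elastic fibres and 3 for prostaglandins. TAGLN, transgelin, an actin-bundling protein of smooth muscle, averaged 2200 ± 350 CPM in primary, 1246 ± 54.2 CPM in senescent and 1315 ± 120 CPM in immortalized libraries (SD, n = 3). CALD1, caldesmon, stood at 878 ± 245, 396 ± 14.8 and 343 ± 45.2 CPM (SD, n = 3), with an edgeR log2 change of -1.66 ± 0.25 (SE) at the first step (adjusted p = 0.000866). TPM1, a tropomyosin, was higher in immortalized than in senescent libraries, with 1446 ± 20.4 against 905 ± 9.96 CPM (SD, n = 3; edgeR log2 change 0.84 ± 0.15, adjusted p = 0.00294).

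The summed level of 9 markers of pericytes and smooth muscle, ACTA2 among them, was 1914 to 2632 CPM in primary, 639 to 661 CPM in senescent and 364 to 367 CPM in immortalized libraries, and 3, 6 and 4 of the 9 reached 1 CPM. Without ACTA2 the other 8 summed to 107 to 214 CPM in primary, 250.2 to 254 CPM in senescent and 184 to 214 CPM in immortalized libraries, so their sum was higher in senescent than in primary libraries. CSPG4 averaged 148, 234 and 183 CPM at the 3 stages and MCAM 0.261, 2.81 and 4 CPM. RGS5 was at 0 in all primary and immortalized libraries, MYH11 averaged 0.518, 1.95 and 0.490 CPM, and DES 0.0638, 0.848 and 0.122 CPM, so these 3 were at or near 0 where ACTA2 was highest.

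The 3 small heat shock protein genes fell together by 4.40-fold to 12.4-fold in total. CRYAB, alpha-B crystallin, a chaperone that binds intermediate filaments, measured 1088, 402 and 539 CPM in primary, 169.6, 162 and 171 CPM in senescent and 48.7, 56.4 and 58.9 CPM in immortalized libraries. HSPB6, a related chaperone known from muscle, stood at 561, 207 and 269 CPM, 144, 146 and 154 CPM and 41.1, 50.5 and 59.5 CPM. HSPB2, the low one of the 3, had 18.9, 8.41 and 11 CPM, 6.19, 5.58 and 5.72 CPM and 1.92, 3.24 and 3.54 CPM. In all 3 genes primary library 1 was more than 2-fold above library 2, although the stages did not overlap. Without primary library 1 HSPB6 and HSPB2 no longer met the rule, and CRYAB still did. The same held with the median of the 3 libraries of a stage in place of the mean. Falls without overlap were found for 72 of the 74 genes at the first and 73 at the second step, beside 15.5% and 46.1% of all tested genes. CRYAB and HSPB2 are neighbours in the RefSeq ARS-UCD2.0 annotation with 0 protein-coding genes between them. EPHX1 and TMEM63A, also both among the 74, were direct neighbours too, whereas RNPEP and LMOD1 as well as ACTA2 and CH25H had 1 protein-coding gene between them and NR4A1 and ACVRL1 had 2.

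The matrix group held 10 genes with total folds from 5.43 to 1028 and a median of 104. MXRA8, a membrane protein associated with matrix remodelling, fell mainly at the first step, from 355, 337 and 417 CPM to 8.47, 8.37 and 9.02 CPM and then to 2.58, 2.54 and 3.49 CPM. TINAGL1, a secreted matricellular protein, measured 355, 279 and 355 CPM, 146, 142 and 160.1 CPM and 56.4, 59.8 and 66 CPM. MFAP2, a component of the microfibrils that scaffold elastin, had 173, 87.1 and 119 CPM, 19.7, 17.7 and 19 CPM and 3.62, 3.69 and 4.66 CPM. These 3 genes remained measurable in every immortalized library.

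Other matrix genes fell to a few counts. CPXM, a secreted carboxypeptidase-like protein, stood at 75.1, 61.1 and 68.8 CPM in primary and 16.7, 19.3 and 18.1 CPM in senescent libraries, and only 4 counts were left in the immortalized ones, all in library 2. CTHRC1, a secreted protein linked to collagen deposition, measured 35.5, 38.7 and 46.8 CPM, then 6.97, 5.32 and 5.77 CPM, with 4 counts over the immortalized libraries. The ratios of 1028 and 602 that follow rest on those few counts. EFEMP1, fibulin-3, went from 40.0, 57.1 and 60.3 CPM to 1.89, 2 and 1.75 CPM and 0.0549, 0.150 and 0.101 CPM, and MMP23B, a membrane-bound metalloproteinase, from 51.2, 40.4 and 50.7 CPM to 2.52, 3.16 and 2.78 CPM and 0.220, 0.150 and 0.101 CPM, with 6 and 9 immortalized counts. ELN, the gene of elastin, averaged 34.1 CPM in primary, 1.21 CPM in senescent and 0.430 CPM in immortalized libraries. ISLR, a marker of mesenchymal stromal cells, averaged 14.3, 3.64 and 0.464 CPM, and ITGA11, a collagen receptor subunit, averaged 11.1, 5.5 and 1.73 CPM.

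**Figure D3:**
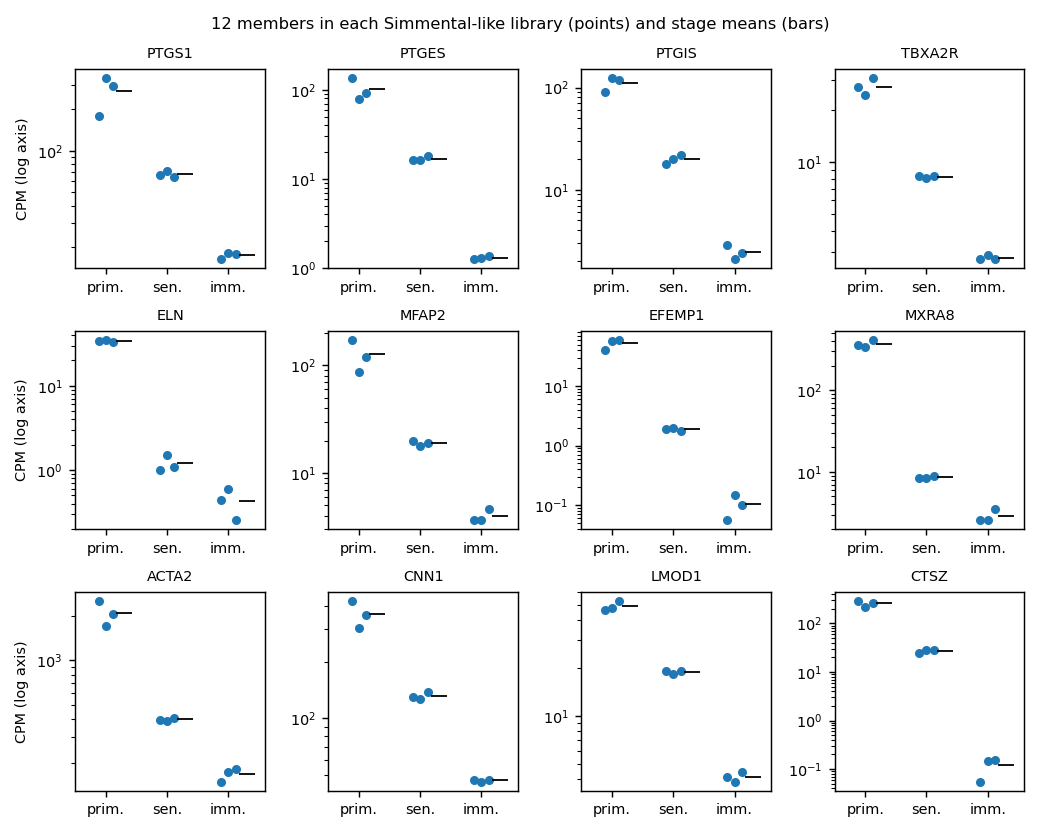
Points are the 3 libraries per Simmental-like stage for 12 genes, 1 panel a gene, on logarithmic CPM axes that differ between panels, and bars mark the stage means. In every panel the 3 stages step down without overlap, which follows from how the genes were chosen. At the first step 15.5% and at the second 46.1% of all tested genes fell without overlap. The ELN points lie near 34.1 CPM, 1.21 CPM and 0.430 CPM, and the CTSZ fall is steeper at the second step.

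Elastic fibre genes outside the 74 gave more lower than higher calls at the first step and more higher than lower calls at the second. Of 20 tested, 11 were lower and 4 higher at the first step, beside 29.7% and 28.3% of all tested genes. With total count scaling the split was 9 and 5, beside 1840 and 5955 of all 13099 tested genes. At the second step 3 were lower and 9 higher, beside 16.1% and 16.4%. With total count scaling that split was 4 and 9, beside 2698 and 1505 of all tested genes. With TMM scaling the list's median log2 change was -0.75 at the first and 0.49 at the second step, and with total count scaling it was -0.28 and 0.33. MFAP4, a microfibril-associated glycoprotein, went with ELN: 18.7 ± 3.89 CPM in primary, 0.744 ± 0.201 CPM in senescent and 0.525 ± 0.235 CPM in immortalized libraries (SD, n = 3; edgeR log2 change -5.14 ± 0.37 at the first step, adjusted p = 1.48e-05). EMILIN2, an elastin microfibril interface protein, fell by 3.74 ± 0.14 on the log2 scale at the first step and rose by 2.35 ± 0.13 at the second (edgeR adjusted p = 5e-07 and 7.79e-06). FBLN5, fibulin-5, which links elastin to cells, was at 354 ± 85.4, 141 ± 3.55 and 516 ± 5.65 CPM (SD, n = 3), a rise of 2.04 ± 0.11 at the second step (edgeR adjusted p = 8.59e-06). LTBP1 rose by 2.26 ± 0.44 on the log2 scale at the first step (edgeR adjusted p = 0.00305). FBN2 rose by 3.43 ± 0.31 at the second (edgeR adjusted p = 9.5e-05). Of 33 other matrix glycoprotein genes 15 were lower and 8 higher at the first step, a split that was 12 and 12 with total count scaling, and 8 were lower and 9 higher at the second (8 and 6). SMOC1, a secreted calcium-binding glycoprotein, fell to 81.9 ± 2.54 CPM from 248 ± 21.2 CPM and stood at 174 ± 6.09 CPM in immortalized libraries (SD, n = 3). Its edgeR log2 change at the first step was -2.07 ± 0.08. LAMA2 and PCOLCE2 changed more at that step and rose, by 3.96 ± 0.22 and 2.74 ± 0.098 (edgeR adjusted p = 2.97e-06 and 4.71e-07). Of 31 matrix proteases and inhibitors 14 were lower and 9 higher at the first step (9 and 12 with total count scaling) and 11 and 4 at the second (13 and 3). TIMP1, an inhibitor of metalloproteinases, fell by 3.15 ± 0.48 on the log2 scale from primary to immortalized libraries (edgeR adjusted p = 0.000814). Its primary libraries scattered widely, at 2769 ± 1770 CPM (SD, n = 3). SERPINB2 and MMP9 rose at the first step by 9.91 ± 0.32 and 3.59 ± 0.36 (edgeR adjusted p = 4.21e-07 and 8.56e-05). Both fell at the second, by 2.81 ± 0.18 and 8.60 ± 0.59 (edgeR adjusted p = 2.01e-05 and 2.47e-05). Of 35 adhesion receptors 11 were lower and 14 higher at the first step (6 and 15) and 10 and 7 at the second (13 and 4).

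The 4 genes of the prostanoid pathway fell at both steps, from the cyclooxygenase to a receptor. PTGS1, the constitutive cyclooxygenase that starts prostanoid synthesis, stood at 179, 336 and 298 CPM in primary, 67.3, 71.9 and 64.8 CPM in senescent and 16.4, 18 and 17.8 CPM in immortalized libraries. PTGIS, which makes prostacyclin, measured 89.5, 123 and 119.6 CPM, 18, 19.9 and 21.7 CPM and 2.91, 2.09 and 2.43 CPM. PTGES, which makes prostaglandin E, measured 134, 77.8 and 92.6 CPM, 16.5, 16.1 and 18.2 CPM and 1.26, 1.3 and 1.37 CPM. The total folds were 15.6, 44.7 and 77.6. No stage overlapped the next, which follows from how the genes were chosen (15.5% and 46.1% of all tested genes at the 2 steps). TBXA2R, the thromboxane receptor, had 27.4, 24.4 and 30.7 CPM, 8.27, 8.1 and 8.35 CPM and 2.74, 2.89 and 2.73 CPM, a total fold of 9.86.

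Of 8 other tested prostaglandin genes 5 were lower and 3 higher at the first step, beside 29.7% and 28.3% of all 13099 tested genes. At the second step 3 were lower and 3 higher, beside 16.1% and 16.4%. With total count scaling the first split was 2 and 3, beside 1840 and 5955 of all tested genes. The list's median log2 change turned from -0.42 to 0.05. From primary to immortalized libraries 4 were lower and 1 higher, beside 25.5% and 24.9% of all tested genes. With total count scaling this split turned to 2 and 3, beside 2098 and 4580 of all tested genes. HPGD, which degrades prostaglandins, stood at 83.3 ± 13.8, 49.8 ± 0.461 and 44.8 ± 0.202 CPM (SD, n = 3; edgeR log2 change -1.20 ± 0.09 at the first step, adjusted p = 1.34e-05). PTGER4, a prostaglandin E receptor, rose from 15.9 ± 3.82 to 46.7 ± 2.30 CPM at the first step (SD, n = 3; edgeR log2 change 1.1 ± 0.13, adjusted p = 0.000174). PLA2G4A, the phospholipase that frees arachidonic acid, was lower in immortalized than in senescent libraries (18.6 ± 1.55 against 72.5 ± 3.12 CPM, SD, n = 3). Its edgeR log2 change at that step was -1.80 ± 0.30 (adjusted p = 0.0022). In primary libraries PLA2G4A stood at 32.0 ± 16.4 CPM (SD, n = 3), below the senescent level.

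The growth factor and cytokine group held 5 genes. IGFBP6, which binds insulin-like growth factors in the medium, measured 664, 399 and 519 CPM in primary, 203, 201 and 216 CPM in senescent and 68.1, 79.5 and 85.2 CPM in immortalized libraries. NOV, the CCN family protein also called CCN3, stood at 286, 399 and 371 CPM, 148, 147 and 149 CPM and 30.2, 27.6 and 28.2 CPM. FLT1, a receptor for vascular endothelial growth factor, had 23, 33.4 and 28.9 CPM, 12.8, 12.1 and 11.7 CPM and 2.03, 1.55 and 1.77 CPM. TNFSF18, a tumour necrosis factor family ligand, had 23, 31.1 and 27.7 CPM, 6.43, 6.21 and 5 CPM and 0.329, 0.199 and 0.456 CPM. By column totals the second step was the larger one for 4 of the 5 genes. The exception was ACVRL1, a type 1 receptor for bone morphogenetic proteins, which averaged 27 CPM in primary, 0.980 CPM in senescent and 0.102 CPM in immortalized libraries, a 27.5-fold first step.

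Other genes of these families were called in both directions. Of all 13099 tested genes 29.7% were lower and 28.3% higher at the first step, and 16.1% and 16.4% at the second. With total count scaling 1840 of all tested genes were lower and 5955 higher at the first step, and 2698 and 1505 at the second. Of 11 other tested insulin-like growth factor genes 2 were lower and 5 higher at the first step (1 and 7 with total count scaling) and 4 lower and 2 higher at the second (4 and 2). IGFBP7 rose by 5.00 ± 0.21 on the log2 scale at the first step (edgeR adjusted p = 8.44e-07), whereas IGFBP3 fell by 2.88 ± 0.28 at the second (edgeR adjusted p = 0.000151). IGFBP3 was highest in senescent libraries, with 127 ± 59.1, 257 ± 4.52 and 31.3 ± 0.667 CPM at the 3 stages (SD, n = 3). Of the 4 other tested CCN genes 3 were lower and 1 higher at the first step (2 and 1), and 0 were lower and 3 higher at the second (0 and 2). WISP2, also called CCN5, fell from 645 ± 102 to 1.72 ± 0.101 CPM at the first step and stood at 3.39 ± 0.316 CPM in immortalized libraries (SD, n = 3), and CYR61, also called CCN1, stood at 1007 ± 41.5, 620.5 ± 22.5 and 1842 ± 206 CPM (SD, n = 3). Of 28 other genes of the TGF-beta and BMP list 9 were lower and 7 higher at the first step (6 and 10 with total count scaling), and 11 and 4 at the second (12 and 3). ID1, a target of bone morphogenetic protein signals, fell from 539 ± 177 to 121 ± 7.07 CPM at the first step (SD, n = 3). Its edgeR log2 change was -2.68 ± 0.30 (adjusted p = 0.000169), whereas TGFB2 rose by 2.10 ± 0.32 at that step (edgeR adjusted p = 0.00077). Of 36 other growth factor receptors and ligands 12 were lower and 19 higher at the first step (5 and 20) and 13 and 9 at the second (14 and 7). FGF2 fell by 4.04 ± 0.13 on the log2 scale at the second step (edgeR adjusted p = 9.29e-07). Its level peaked in senescent libraries, with 50.2 ± 8.47, 107 ± 8.20 and 5.82 ± 0.550 CPM at the 3 stages (SD, n = 3). HGF and EFNB2 rose at the first step by 7.48 ± 0.27 and 4.40 ± 0.45 (edgeR adjusted p = 5e-07 and 9.29e-05).

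The 8 genes of the lysosome and of innate immunity had the larger median fall between senescent and immortalized libraries, with medians of 2.74-fold at the first and 9.60-fold at the second step. CTSZ, the lysosomal protease cathepsin Z, stood at 291, 224 and 264 CPM in primary and 25, 28.9 and 28.6 CPM in senescent libraries and at 0.0549, 0.150 and 0.152 CPM, 7 counts in all, in immortalized ones. Its total ratio of 2184 was the highest of the 74. CTSS, cathepsin S, measured 42, 64 and 69.7 CPM, 28.6, 28.4 and 27 CPM and 4.28, 3.74 and 3.04 CPM, and DNASE2, the lysosomal deoxyribonuclease, 50.1, 38.4 and 46.2 CPM, 19.7, 20.6 and 21.4 CPM and 9.99, 9.27 and 10.9 CPM. APBB1IP, an adaptor in integrin activation by talin, had 62.4, 79.1 and 79 CPM, 27, 26.3 and 24.5 CPM and 1.98, 2.34 and 2.38 CPM. The others were CYBA, a subunit of the superoxide-producing NADPH oxidase, ENTPD1, which breaks down extracellular ATP, CD14, the lipopolysaccharide co-receptor, and PLA2R1, a phospholipase A2 receptor. They averaged 14.0 to 33.0 CPM in primary and 0.154 to 3.76 CPM in immortalized libraries.

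Among 29 other tested lysosome genes 10 were lower and 4 higher at the first step, beside 29.7% and 28.3% of all 13099 tested genes. With total count scaling 1 was lower and 13 were higher, beside 1840 lower and 5955 higher of all tested genes. At the second step 12 were lower and 2 higher, beside 16.1% and 16.4%. Their median log2 change was -0.26 beside -0.0018 over all tested genes. With total count scaling the second split was 13 and 0, beside 2698 and 1505 of all tested genes. GAA, the lysosomal glucosidase, averaged 26.8 ± 9.12, 24.2 ± 1.82 and 6.10 ± 0.349 CPM at the 3 stages (SD, n = 3; edgeR log2 change -1.83 ± 0.19 at the second step, adjusted p = 0.000207). LAMP2, a lysosomal membrane protein, fell from 523 ± 7.47 to 202 ± 6.02 CPM at the second step (SD, n = 3), with an edgeR log2 change of -1.21 ± 0.10 (adjusted p = 4.85e-05). LAMP2 stood lower in primary than in senescent libraries, at 271 ± 53.3 CPM (SD, n = 3), so it did not fall stepwise. Immune cell markers summed to 14.8 to 17.4 CPM in primary, 10.1 to 11.7 CPM in senescent and 3.13 to 5.97 CPM in immortalized libraries, with 2, 3 and 2 of 7 markers at 1 CPM or more. Without CD14, one of the 74, the other 6 summed to 1.36 to 2.67 CPM in primary, 4.64 to 5.1 CPM in senescent and 3.02 to 5.77 CPM in immortalized libraries, so their sum was lowest in primary libraries. There MS4A1 was at 0 and PTPRC, the pan-leukocyte marker, averaged 0.0144 CPM.

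The group of lipid and other metabolic enzymes was the one with the most members, 13 genes with total folds of 5.29 to 291. ISYNA1, which makes inositol phosphate from glucose phosphate, stood at 82.1, 47.9 and 59.7 CPM in primary, 4.79, 5.58 and 5.15 CPM in senescent and 0.933, 1.4 and 1.97 CPM in immortalized libraries. FABP5, a fatty acid carrier, halved at the first step and nearly vanished at the second, with 54.8, 55.7 and 71.6 CPM, 28.6, 27.4 and 31.3 CPM and 0.274, 0.249 and 0.101 CPM. POMT1, an O-mannosyltransferase, had 35.8, 27.2 and 28.2 CPM, 12.4, 10.9 and 11.8 CPM and 1.1, 1.15 and 1.01 CPM. The first step was mild and the second steep for FABP5 (2.09-fold, then 140-fold), while ISYNA1 showed the reverse order (12.2-fold, then 3.61-fold). HTATIP2, an oxidoreductase linked to nuclear import, measured 20.7, 24.8 and 25.5 CPM, 3.97, 3.53 and 4.48 CPM and 0.0549, 0.0997 and 0.152 CPM. The other 9 were CH25H (cholesterol 25-hydroxylase), MGLL (monoacylglycerol lipase), EPHX1 (epoxide hydrolase), CA2 (carbonic anhydrase), A4GALT (a glycolipid galactosyltransferase), RNPEP (aminopeptidase B), HSD17B14 (a steroid dehydrogenase), NMRAL1 and ECHDC2. Of 19 other tested lipid handling and adipogenic genes 6 were lower and 5 higher at the first step (4 and 10 with total count scaling) and 5 and 3 at the second (6 and 3). Over all 13099 tested genes the shares were 29.7% and 28.3% at the first step and 16.1% and 16.4% at the second. With total count scaling 1840 and 5955 of all tested genes were called at the first step and 2698 and 1505 at the second. FABP4, the fatty acid carrier of adipocytes, was at 17.9 ± 4.21, 31.3 ± 0.599 and 0.155 ± 0.0498 CPM (SD, n = 3), and fell by 7.44 ± 0.37 on the log2 scale at the second step (edgeR adjusted p = 6.22e-06). CD36 rose by 5.05 ± 0.22 at the first step and fell by 2.47 ± 0.18 at the second (edgeR adjusted p = 9.88e-07 and 2.91e-05).

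Channels, junction proteins and other membrane proteins made up 10 genes, 7 of which had the larger fall at the first step by column totals. AQP1, the water channel, went from 286, 426 and 426 CPM to 23.4, 20.9 and 19.1 CPM and 2.69, 1.35 and 1.72 CPM. SDK1, a cell adhesion molecule of the immunoglobulin superfamily, was at 26.8, 55.3 and 43.8 CPM in primary libraries and already under 0.4 CPM in the senescent ones (0.387, 0.263 and 0.206 CPM), and 7 counts were left in the immortalized libraries (0.220, 0.0499 and 0.101 CPM). Senescent and immortalized values overlapped only for this gene, and without immortalized library 1 its second step was 3.78-fold in place of 2.31-fold. PPL, periplakin, which links keratin filaments to the cell edge, had 61.2, 126 and 117 CPM, 24.7, 27.6 and 27.4 CPM and 8.12, 8.03 and 7.84 CPM. TMEM63A, an ion channel opened by membrane tension, had 95.9, 78.7 and 80.8 CPM, 40.4, 39.8 and 41.2 CPM and 18.7, 19.3 and 22 CPM. ANK2, ankyrin 2, which anchors membrane proteins to spectrin, varied most among the primary libraries, with 13.9, 99.8 and 43.2 CPM there, 11.5, 11.3 and 9.74 CPM in senescent and 5.87, 4.69 and 4 CPM in immortalized libraries. Without primary library 2 its first step was 2.64-fold in place of 4.83-fold, and that of SCN3A, a sodium channel, was 1.5-fold in place of 2.34-fold. The remaining genes were JAM3 and CLDN15, which form tight junctions, TMEM150C and NNAT.

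The last group joined 12 nuclear, stress and other genes. NUPR1, a nuclear protein induced by stress, measured 262, 70.2 and 95.1 CPM in primary, 36.5, 37.3 and 39.7 CPM in senescent and 13.1, 14.5 and 16 CPM in immortalized libraries. Its primary level rested largely on library 1: without that library the first step was 2.19-fold in place of 3.76-fold. SAMD11, a chromatin-associated protein, stood at 122, 138 and 143 CPM, 19.4, 17.9 and 18.9 CPM and 3.46, 3.29 and 3.64 CPM. NR4A1, an orphan nuclear receptor and immediate early gene, had 51.7, 44.9 and 41.4 CPM, 13.4, 13.4 and 13.5 CPM and 5.49, 4.24 and 5.21 CPM. ARHGEF5, a guanine nucleotide exchange factor, had 26.2, 36.9 and 33.8 CPM, 2.76, 3.42 and 2.99 CPM and 0.220, 0.0997 and 0.152 CPM. Stages did not overlap in any of the 12, which follows from how the genes were chosen. At the first step 15.5% and at the second 46.1% of all tested genes fell without overlap. The other 8 were the transcription factors DMRT2 and DBP, the corepressor HR, the apoptosis regulator BOK, and HIRIP3, RAB3IL1, SH3D21 and ADPRHL1. Of 25 other immediate early genes 4 were lower and 9 higher at the first step (2 and 14 with total count scaling), and 13 were lower and 1 higher at the second (14 and 1). Among all 13099 tested genes 29.7% and 28.3% were called at the first step and 16.1% and 16.4% at the second. With total count scaling these were 1840 and 5955 genes at the first step and 2698 and 1505 at the second. NR4A2, a paralog of NR4A1, averaged 13.6, 27.4 and 4.54 CPM and fell by 2.43 ± 0.16 on the log2 scale at the second step (edgeR adjusted p = 1.9e-05).

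Genes near the limits show how sharply the set was drawn. At the first step ITGA11 (ratio of senescent to primary mean 0.495) and FABP5 (0.479) were just inside, and IRF7 (0.504) and ANGPTL4 (0.520) just outside. At the second step HSPB2 (ratio of immortalized to senescent mean 0.498) and TMEM63A (0.495) were just inside, and PSD (0.501) and SLC16A7 (0.503) just outside. With TMM scaling in place of column totals the rule gave 84 genes, 68 of them among the 74; ANK2, BOK, DNASE2, HSPB2, RNPEP and TMEM63A left the set.

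Primary libraries differed among themselves in a way that ran with gene length on the chromosome. The median coefficient of variation of the 74 genes was 16.6% in primary, 7.04% in senescent and 17.4% in immortalized libraries, against 22.5%, 3.68% and 6.93% for the 8044 genes. Of the 67 genes with a RefSeq entry, 13 were over 1.5 times higher in primary library 1 than in library 2, with a median genomic span of 6.21 kb, and 12 were over 1.5 times higher in library 2, with a median span of 101 kb. NUPR1 (span 1.33 kb, 3.73-fold higher in library 1) and ANK2 (span 586 kb, at a ratio of 0.140) marked the ends. Across the 67 genes the log2 ratio of library 1 to 2 and the log2 span had a Pearson r of -0.749 and a Spearman rank correlation of -0.700; across 7104 of the 8044 genes these were -0.532 and -0.545. Genes of 1 pair of libraries are not independent replicates, and span includes introns. The part of this difference in the fall of any gene was not tested.

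**Figure D4:**
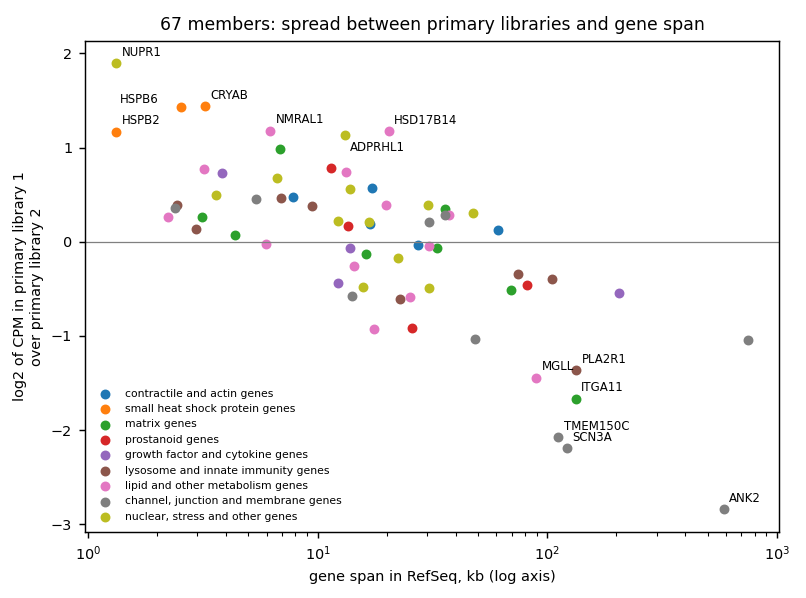
Each point is 1 of 67 genes, with the genomic span in kb on a logarithmic x axis and the log2 ratio of CPM in Simmental-like primary library 1 to library 2 on the y axis. Short genes such as NUPR1 lie above 0 and long ones such as ANK2 below.

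The Holstein-like libraries, which the rule did not use, held high levels of markers of other organs, against their fibroblast label. The 3 primary libraries held 1.42 to 1.47 M counts and the others 11 to 14.1 M. Skeletal muscle markers took 18.2% to 18.4% of the counts of the primary libraries and fibroblast markers 0.0685% to 0.0693%. Liver markers took 13.6%, 13.1% and 12.9% of senescent libraries 2 and 3 and immortalized library 1. Senescent library 1 held heart (2.33%) and skeletal muscle (3.07%) markers, immortalized library 2 kidney markers (0.803%), and immortalized library 3 had the highest fibroblast share, 6.61%. Immortalized library 3 also had the highest endothelial (0.570%), immune (0.335%) and adipocyte (0.198%) marker shares of the Holstein-like libraries. The counts of the 3 primary libraries were nearly as alike as sampling allows (chi-square per gene 1.20 to 1.22), whereas senescent libraries differed by 197 to 1114. Comparisons between the labelled stages are therefore comparisons between libraries of this content, and the part of the organ markers in each result was not tested.

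Of the 74 genes, 73 were tested in the Holstein-like fit, all but SCN3A. From primary to senescent libraries edgeR called 1 lower and 10 higher, beside 5.9% lower and 9.31% higher of all 13312 tested genes, and the median log2 change was 1.14 beside 0.62 over all. From senescent to immortalized libraries 0 were called in either direction, as were 0% of all tested genes; at an unadjusted p under 0.05 the counts were 1 lower and 11 higher of the 73, beside 2.8% and 4.5% of all tested genes, and DESeq2 called 0 and 1, beside 0.0238% and 0.238%. From primary to immortalized libraries 1 was lower and 22 were higher, beside 8.73% and 15.3% of all tested genes, with a median log2 change of 2.45 beside 0.74. The 3 primary libraries were nearly as alike as sampling allows. The calls, SE and p-values against them, here and below, depend on counting them as 3 separate samples. The calls were lost with the 3 summed and counted as 1 sample. That fit leaves 1 primary sample, and calls over all tested genes were lost too, so it cannot set these genes apart from others. Leaving out 1 library also changed the counts: without primary library 1, 2 or 3 the number called higher in senescent than in primary libraries was 0, 1 and 0, and without senescent library 1 it was 17, with 5 lower. The calls over all genes moved with them, from 2024 to 146, 154 and 143 without each primary library and to 3545 without senescent library 1.

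NR4A1 was the gene called lower. It stood at 266, 258 and 249.9 CPM in the Holstein-like primary libraries, 24.8, 5.04 and 14.8 CPM in senescent and 14.9, 15.6 and 11.5 CPM in immortalized ones, with edgeR log2 changes from primary of -4.46 ± 0.70 and -4.97 ± 0.72 (SE; adjusted p = 0.0115 and 0.00784). Its calls were lost in 5 (senescent) and 1 (immortalized) of 16 alternatives, and its adjusted p over all settings ran from 1.27e-10 to 0.251 for the senescent and from 8.72e-13 to 0.186 for the immortalized comparison with edgeR or DESeq2. All 3 primary libraries were above all 6 others. CTSZ, nearly gone from Simmental-like immortalized cells, ran the other way, with 11, 6.82 and 8.42 CPM in primary, 47.1, 344 and 229 CPM in senescent and 325, 458 and 513 CPM in immortalized libraries (edgeR log2 changes 4.16 ± 0.74 and 4.76 ± 0.76, adjusted p = 0.0154 and 0.00934). CTSS stood at 8.91, 9.54 and 4.21 CPM, 46.5, 60.7 and 69.5 CPM and 120.1, 67.8 and 578 CPM (edgeR log2 change 4.1 ± 0.78 from primary to immortalized, adjusted p = 0.014). ACTA2 had 47.3, 34.1 and 35.1 CPM, 158, 82.1 and 60.1 CPM and 73.2, 358 and 567 CPM (edgeR log2 change 2.04 ± 0.64 from primary to immortalized, adjusted p = 0.0489). Of 16 alternatives the ACTA2 call was lost in 10 (adjusted p up to 0.422), the CTSS call in 5, and the CTSZ calls in 5 (senescent) and 3 (immortalized). In these 3 genes the primary libraries were the low ones.

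EPHX1, PPL and TMEM63A were also called higher. EPHX1 stood at 0, 6.82 and 1.4 CPM in primary, 56.1, 772 and 455 CPM in senescent and 723, 105 and 108 CPM in immortalized libraries, and its 3 highest values were in the 3 libraries with liver markers. PPL had 6.17, 7.5 and 5.62 CPM, 8.31, 105 and 392 CPM and 252, 217 and 106 CPM. TMEM63A had 16.4, 9.54 and 12.6 CPM, 108, 84.8 and 147 CPM and 117, 89.2 and 109 CPM. NUPR1 had 2.06, 0 and 2.11 CPM, 17.4, 99 and 138 CPM and 138, 18.3 and 90.2 CPM. Of 16 alternatives the EPHX1 calls were lost in 9 (senescent against primary) and 8 (immortalized against primary), the PPL calls in 11 and 8, the TMEM63A call for senescent libraries in 4 and that of NUPR1 in 7. Low primary values here rest on few counts, since 3 counts are 2.05 to 2.11 CPM in those libraries, and 7 of the 74 genes were at 0 in all 3.

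Taken by the labelled means, 5 of the 74 genes (6.76%) fell at both Holstein-like steps, beside 480 of the 8044 genes (5.97%). These were CRYAB, HSPB6, HSPB2, ADPRHL1 and NR4A1, and the first 4 had high values in the 4 libraries with muscle markers. Immortalized library 3 was the highest of the 9 libraries for 35 of the 74 genes (47.3%), against 37.6% of the 8044, and lay above the Simmental-like primary mean for 37 (50%), against 41.7%. GSN reached 4183 CPM, MXRA8 968 CPM and FABP5 471 CPM in that library. The primary and senescent libraries did not overlap for 6 genes in the lower and 31 in the higher direction (8.22% and 42.5%), beside 12.9% and 42.1% of all tested genes. For immortalized against senescent libraries these counts were 0 and 7 (0% and 9.59%), beside 0.623% and 4.65%, and for immortalized against primary libraries 6 and 42 (8.22% and 57.5%), beside 9.56% and 48.6%.

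**Figure D5:**
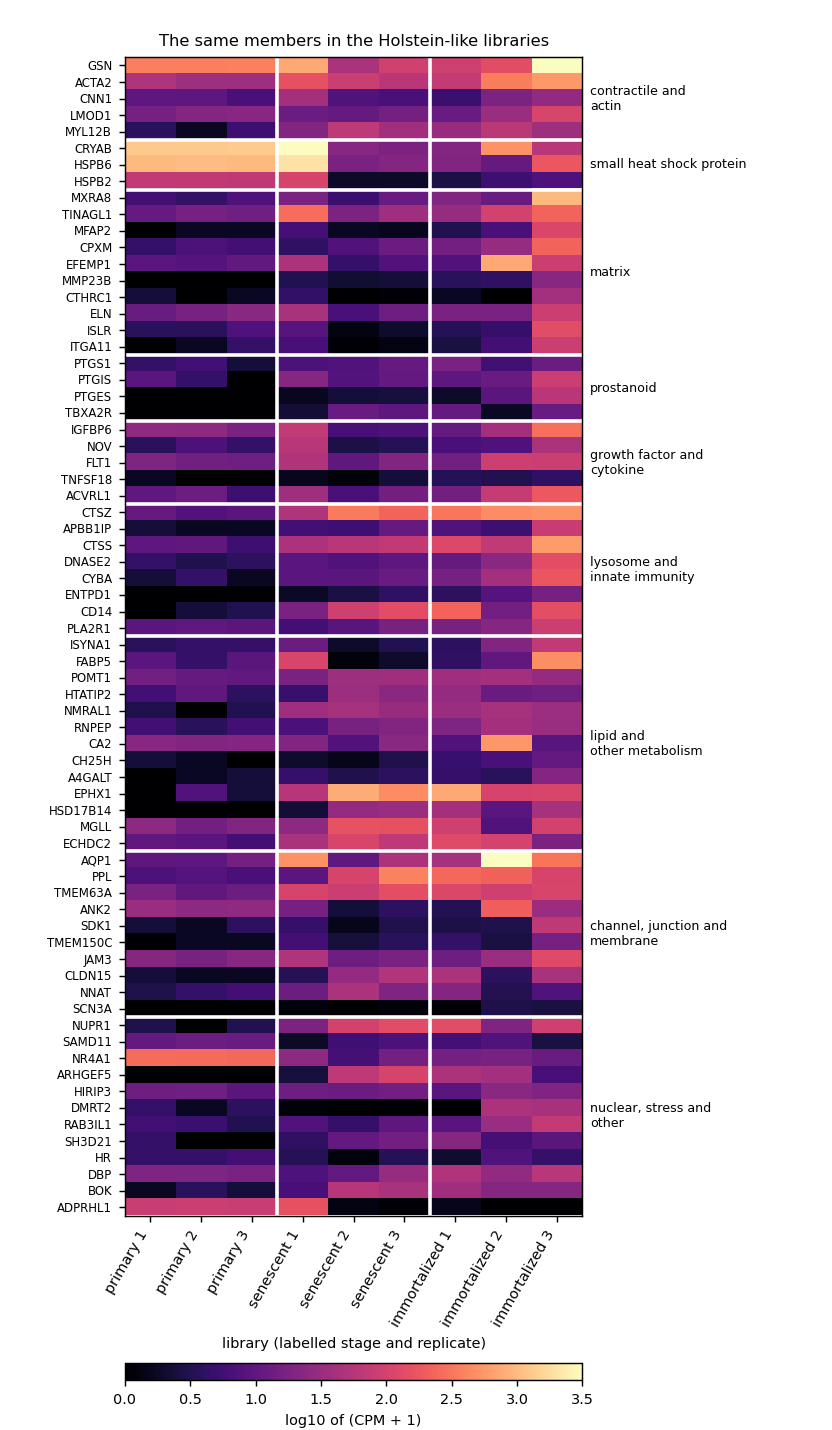
The map shows the 70 genes with a symbol in the 9 Holstein-like libraries, as log10 of CPM plus 1, with rows in the order used for the Simmental-like map. No common step down from left to right is seen. Immortalized library 3, with the highest shares of fibroblast, endothelial, immune and adipocyte markers, is the brightest column for many matrix genes. Small heat shock protein genes are bright in the primary libraries and senescent library 1.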

How the data were processed

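Gene counts of 18 RNA sequencing libraries were analysed. Per the labels' protocols, RNA was purified with RNeasy kits and libraries came from NEBNext Ultra II kits and were read on a NextSeq as single reads; the submitters' processing notes give build UMD 3.1. The deposited table holds expected counts per gene that the authors estimated with salmon and merged, as its file name says. Which salmon version, annotation release and strand setting were used is not stated there, so overlapping and antisense genes cannot be told apart. Between 1.01% and 7.18% of a library's values were not whole, and all were rounded for tests.

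Levels are CPM by column total. The 9 libraries of a line entered 1 fit in edgeR 4.0.16 (R 4.3.3; TMM, filterByExpr by group, robust quasi-likelihood F-test, Benjamini-Hochberg threshold 0.05); an SE was obtained by dividing the log2 change by the root of F. Intervals between libraries cover these libraries only, and the floor of 3 counts covers counting error only. The 74 genes, their function groups and the gene lists (25, of which the 13 that hold one of the genes are reported, plus 12 lists of cell type and organ markers) were chosen with earlier results of these data known, and function groups were assigned by hand from the symbols. Genes named with values are the up to 4 with the highest primary level in a group, the 6 with the highest total ratio, those next to the limits, up to 3 called genes of a list and, in Holstein-like libraries, the up to 6 called genes with the highest CPM; others are named with means or without values. A few further genes that meet the rule are not reported here. Gene order and span come from RefSeq ARS-UCD2.0, a build other than the files', by symbol (67 of 74 genes matched), and no coordinates are given. Alternatives were other scalings, filters and limits of the rule, DESeq2 1.42.0, a replicate block, merged libraries and leaving out each library.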

Additional observations from a re-analysis of the deposited data

Results flagged for a closer look

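These results concern genes of the set that were lower in every later Simmental-like library than in every primary one and were called higher in Holstein-like libraries. The difference between the lines was not tested, and the Holstein-like libraries held the organ markers described above. From primary to immortalized libraries the Holstein-like edgeR log2 changes were 4.76 for CTSZ, 2.04 for ACTA2, 6.41 for EPHX1, 4.1 for CTSS and 4.21 for PPL. From primary to senescent libraries they were 6.87 for EPHX1, 4.16 for CTSZ, 4.23 for PPL, 2.74 for TMEM63A and 5.49 for NUPR1. All 3 libraries of the later stage lay above all 3 primary libraries in each case. Of 16 alternatives each, these calls were lost in 3 to 11, among them the fit with the primary libraries summed to 1 sample, which called 0 of all tested genes.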

How the results depend on the processing

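The rule gave 34 genes with a limit of 1 over 3 at each step, 90 and 52 with a minimum of 5 and 20 CPM, and 67 to 77 when 1 library was left out. Replicate numbers did not pair the samples (same-numbered deviations had r of -0.50 for Simmental-like primary and immortalized replicate 1 and -0.58 for Holstein-like senescent and immortalized replicate 1). With a replicate block edgeR called 6743, 3466 and 5753 Simmental-like genes in the 3 comparisons (senescent with primary, immortalized with senescent, immortalized with primary), against 7591, 4249 and 6607. Leaving out 1 library gave 5838 to 9042, 2888 to 7793 (7793 without primary library 1) and 5191 to 8282. In the Holstein-like libraries the genes of the set called lower and higher in senescent than in primary libraries were 2 and 19 with DESeq2, 1 and 1 with the block and 0 and 0 with summed primary libraries, with ranges of 0 to 5 and 0 to 17 when 1 library was left out; over all genes 3942, 303 and 0 were called in either direction, against 2024. In immortalized against senescent libraries DESeq2 called 1 higher, and leaving out 1 library gave 0 to 0. In immortalized against primary libraries the counts were 2 and 38 with total count scaling, 2 and 30 with DESeq2, 2 and 4 with the block and 0 and 0 with summed primary libraries, with ranges of 1 to 6 and 0 to 25; over all genes 5323, 4938, 1109 and 0 were called, against 3198. The causes were not tested, and the fits with libraries left out or summed also held fewer samples. For single genes of the lists and of the Holstein-like comparisons, 1916 of the alternative values stayed on their side of the threshold and 100 lost the call, none turned. Of counts over gene lists 1131 stayed within 1.5 times the reported count and 117 did not. Of the fold sizes of the 70 genes with a symbol 1671 moved by less than 1 SD between libraries and 147 by more. Depth limits the lowest immortalized levels, which rest on 4 to 12 counts for the genes with the highest ratios, and the Holstein-like primary levels.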

Other observations

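Some genes of the set had their highest Holstein-like values in single libraries with organ markers. AQP1 reached 3168 CPM, EFEMP1 725 CPM, CA2 543 CPM and ANK2 207 CPM in immortalized library 2, the one with kidney markers, against 310, 83.4, 7.87 and 32.9 CPM in immortalized library 3. CRYAB reached 3537 CPM and HSPB6 2012 CPM in senescent library 1, the one with heart and skeletal muscle markers, against 22.2 and 16.3 CPM in senescent library 2. ADPRHL1, which is known from heart muscle, was at 80.2, 83.8 and 78.6 CPM in the primary libraries and 154 CPM in senescent library 1, and at 0.503 CPM or less in the other 5.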
